A study of Mus musculus with 4 samples.

Results

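Mitochondrially encoded genes were examined in C2C12 myoblasts, a mouse muscle precursor cell line, after stable knockdown of *Hnrnpl*, the gene for the splicing regulator hnRNP L. The members were all genes in the count files whose GENCODE symbol starts with mt-, which gave 37 of 56748 gene IDs: 13 protein coding genes, 2 rRNA genes and 22 tRNA genes. Both groups were wild type C2C12 myoblasts kept in growth medium with serum, transfected with shRNA plasmids that also carried an eGFP reporter, and selected with puromycin. The scrambled group (2 libraries) carried a control shRNA and the knockdown group (2 libraries) carried a mix of shRNAs against *Hnrnpl*. Replicates came from separate passages of 1 selected stable line per group, so the effect of the shRNA and of the selected line cannot be told apart, and p-values measure only the spread between passages. Replicate numbers 1 and 2 were also taken as batch numbers, and both libraries of a number carry the same date in the authors' supplement. Each batch held 1 library of each group. Native RNA was read by nanopore direct RNA sequencing, which starts from the 3′ end of RNA molecules with a poly(A) tail, and a gene's count is the number of reads assigned to it.

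Mitochondrial DNA is a small circle read on both strands as long precursor RNAs. The tRNAs lie between most of the other genes and are cut out of the precursor, which frees the rRNAs and mRNAs, and most of these then receive short poly(A) tails. The 13 proteins are all subunits of the respiratory chain or of ATP synthase: 7 belong to complex I (the NADH dehydrogenase), 1 to complex III (cytochrome b), 3 to complex IV (cytochrome c oxidase) and 2 to complex V (ATP synthase). All other proteins of the organelle, with those that transcribe and process its RNA, are encoded in the nucleus. Of the protein coding members, *mt-Nd6* is the only 1 that lies on the minus strand of the reference, and the others and both rRNA genes lie on the plus strand.

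Reads assigned to genes numbered 1387523 in scrambled 1, 1676911 in scrambled 2, 1374637 in knockdown 1 and 1229424 in knockdown 2. The targeted gene *Hnrnpl* had 358 and 656 reads in scrambled against 242 and 258 in knockdown, and normalized counts were 464 ± 125 and 272 ± 42.8 (SD, n = 2 each), which was lower in knockdown (log2 fold change -0.78, SE 0.18, edgeR adjusted p = 0.0112). Without scrambled 2 the change was -0.48 (edgeR adjusted p = 0.194) and without knockdown 1 it was -0.62 (0.1502), while DESeq2 with a parametric dispersion fit gave adjusted p = 0.0567 and 0.0670. All 8 myoblast markers had reads, although *Myod1* had 1 read in all, and their summed level was lower in knockdown (659 and 804 against 461 and 377 counts per 1000000 counted reads, CPM). Lower in both knockdown libraries were *Des* (373 and 571 against 309 and 242 reads), *Chrna1* (255 and 409 against 120 and 78) and *Cdh15* (113 and 152 against 25 and 14). The groups overlapped for *Myf5* (157 and 190 against 158 and 113) and *Vcam1* (13 and 18 against 20 and 13). Differentiated muscle markers summed to at most 11.5 CPM, with *Myog* at 0, and epithelial markers were at 0. Macrophage markers summed to 2.16 and 1.79 CPM in scrambled against 39.3 and 27.7 in knockdown, mostly from *Mgl2* (0 and 0 against 50 and 30 reads), with *Ptprc* and *Adgre1* at 0. Neuronal markers summed to 108 and 88.9 CPM in scrambled against 15.3 and 14.6 in knockdown, which was *Tubb3* alone (150 and 149 against 20 and 18 reads) but for 1 read of *Syt1*, with *Rbfox3* and *Snap25* at 0. These levels moved with the groups, and their part in the mitochondrial results was not tested.

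Only 14 of the 37 members had a read in any library. The 23 members with none were the protein coding *mt-Nd4l* and *mt-Atp8* and 21 of the 22 tRNA genes (*mt-Tf*, *mt-Tv*, *mt-Tl1*, *mt-Ti*, *mt-Tq*, *mt-Tm*, *mt-Tw*, *mt-Ta*, *mt-Tn*, *mt-Tc*, *mt-Ty*, *mt-Ts1*, *mt-Td*, *mt-Tk*, *mt-Tg*, *mt-Tr*, *mt-Th*, *mt-Ts2*, *mt-Tl2*, *mt-Te* and *mt-Tt*). A count of 0 allows a level of up to 1.79 to 2.44 CPM in these libraries, taking 3 counts as the limit and covering counting error only. It sets no limit for RNA that lacks a poly(A) tail or for reads set aside in the counting. A further 4 protein coding members, *mt-Co2*, *mt-Atp6*, *mt-Co3* and *mt-Nd3*, had 0 to 4 reads per library. The remaining 10 members passed the filter on low counts and are among the 8670 genes tested.

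The protein coding members with almost no reads are neighbours on the mitochondrial map. Nuclear DNA holds old copies of mitochondrial DNA, and a search of the GRCm39 genome found one on the minus strand of chromosome 1, at chr1:24650616-24655269, that matched chrM:6390-11042 at 99.936% identity over 4654 aligned bases, with 2 mismatches and 1 gap base. All 6 protein coding genes with 0 to 4 reads (*mt-Co2*, *mt-Atp8*, *mt-Atp6*, *mt-Co3*, *mt-Nd3* and *mt-Nd4l*) lay wholly inside the copied stretch and together had 4 and 2 reads in scrambled against 8 and 1 in knockdown. The next 2 genes lay partly inside, *mt-Co1* with 31.3% and *mt-Nd4* with 63.6% of its length, and these had 1862 to 6305 reads per library. The 5 protein coding genes outside it had 60 to 20590 reads per library. Sequences of each kind are shown because a read has to differ between its possible origins to be placed on one of them. For *mt-Co2* (chrM:7324-7383) and *mt-Nd3* (chrM:9604-9663), 60 bases are set against the copy at chr1:24654276-24654335 and chr1:24651996-24652055. For *mt-Cytb* (chrM:14687-14746) and the minus-strand *mt-Nd6* (chrM:13782-13841), they are set against the best nuclear match, at chr4:79922768-79922827 and chr4:79921863-79921922. All are written in the direction of the gene, with capitals for bases that differ between the pair.
mt-Co2: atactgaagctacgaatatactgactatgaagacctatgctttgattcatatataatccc
chromosome 1 copy of mt-Co2: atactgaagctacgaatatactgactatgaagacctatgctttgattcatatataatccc
mt-Nd3: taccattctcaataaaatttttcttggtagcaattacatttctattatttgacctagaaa
chromosome 1 copy of mt-Nd3: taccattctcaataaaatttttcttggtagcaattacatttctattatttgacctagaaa
mt-Cytb: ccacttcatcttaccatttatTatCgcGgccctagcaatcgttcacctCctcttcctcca
chromosome 4 copy of mt-Cytb: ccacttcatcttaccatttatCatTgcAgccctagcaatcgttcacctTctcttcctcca
mt-Nd6: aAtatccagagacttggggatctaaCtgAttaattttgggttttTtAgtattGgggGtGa
chromosome 4 copy of mt-Nd6: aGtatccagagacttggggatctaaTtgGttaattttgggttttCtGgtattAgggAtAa

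The *mt-Co2* and *mt-Nd3* stretches had 0 differences from the copy, and the *mt-Cytb* and *mt-Nd6* stretches had 4 and 8. The best nuclear match of *mt-Cytb* had 92.9% identity over 1143 aligned bases, that of *mt-Nd6* 93.6% over 519 and that of *mt-Nd2*, on chromosome 2, 96.7% over 511 of its 1038 bases. *mt-Nd5* had its longest match at 92.3% over 1080 of its 1824 bases, and a stretch of 955 bases of chromosome 13 matched in its region at 95.2%. A match on chromosome 4 that covers part of *mt-Nd1* and the genes after it had 78.7% identity over 1346 aligned bases. *mt-Co1* matched another copy, on chromosome 2, at 97.6% over its whole length. In the counting, 23.1% to 24.2% of the aligned reads of each library were set aside for low mapping quality, and which of these were mitochondrial was not analysed here. The part of the copy in the low counts of the 6 genes was not tested. The chromosome 1 copy is itself annotated as pseudogenes, and those had few reads: *Gm28661*, the copy of *mt-Co2*, had 40 and 43 reads in scrambled against 64 and 54 in knockdown, *Gm28438* (*mt-Nd3*) had 25 and 32 against 21 and 19, and *Gm28437* (*mt-Co3*) had 2 and 11 against 9 and 5. Over the 7 pseudogenes the sum was 77 and 89 reads in scrambled against 98 and 82 in knockdown. Added to *mt-Co2*, the reads of its pseudogene gave 41 and 44 against 67 and 54, a log2 fold change of 0.71 that missed the threshold (SE 0.23, edgeR adjusted p = 0.0743). Added to *mt-Nd3*, they gave 26 and 32 against 21 and 19, a log2 fold change of -0.33 that also missed it (SE 0.32, edgeR adjusted p = 0.589).

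**Figure D1:**
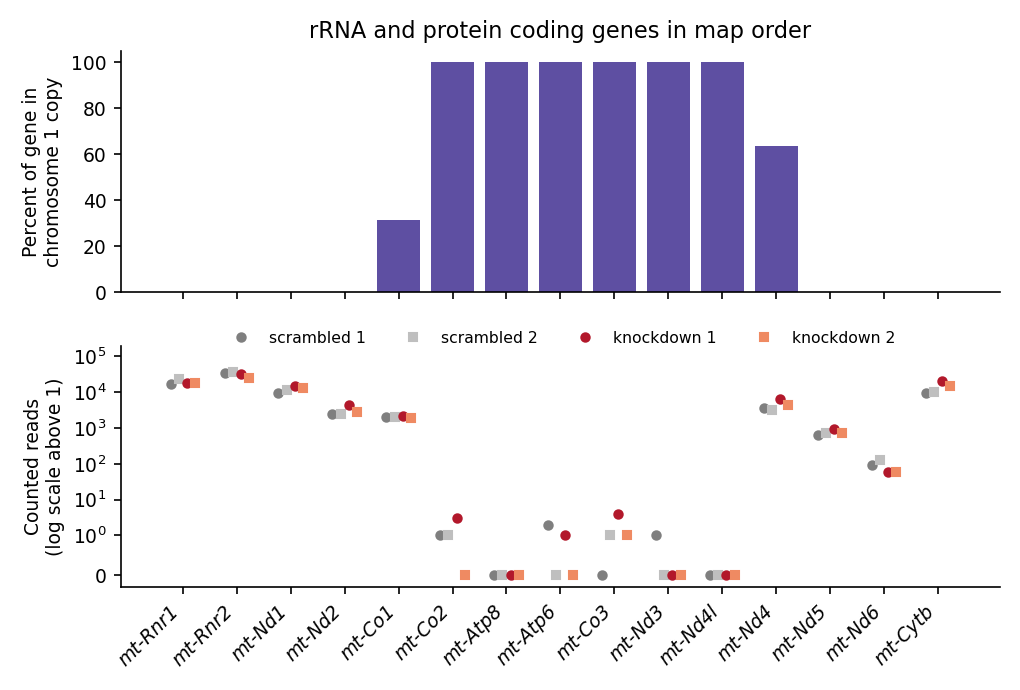
Upper panel, percent of each rRNA and protein coding gene that lies in the chromosome 1 copy; lower panel, counted reads per library (log scale above 1). The 6 genes at 100% have 0 to 4 reads in every library, and genes on both sides of them have 60 to 37074.

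Overlap between members is a second property of the reference that bears on a count of whole reads, since a read that covers a pair of genes can be ambiguous, and 16.3% to 16.8% of aligned reads per library were set aside as ambiguous. Both protein coding members with no read at all share bases with a neighbour on the same strand. Members with more reads that do so are *mt-Nd1* and *mt-Nd2*, by 2 bases with the tRNA gene that follows (9738 to 15216 and 2419 to 4441 reads), and *mt-Nd4*, by the 7 bases with *mt-Nd4l* (3155 to 6305 reads). The longer shared stretches of protein coding genes are shown in capitals, 43 bases for *mt-Atp8* and *mt-Atp6* (within chrM:7917-7979) and 7 bases for *mt-Nd4l* and *mt-Nd4* (within chrM:10157-10183), while *mt-Atp6* and *mt-Co3* share 1 base.
end of mt-Atp8 and start of mt-Atp6: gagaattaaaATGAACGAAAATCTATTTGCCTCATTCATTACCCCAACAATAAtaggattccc
end of mt-Nd4l and start of mt-Nd4: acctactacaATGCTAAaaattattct

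In each of these pairs the stop codon of the first gene falls after the start codon of the second. Such pairs are known to be carried on 1 shared mRNA. How many of the ambiguous reads fell on these genes was not analysed here.

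The share of counted reads that came from mitochondrially encoded genes was 5.73% and 5.42% in scrambled against 7.30% and 6.70% in knockdown. The groups did not overlap, and the difference was 1.57 percentage points within batch 1 and 1.28 within batch 2. An exact permutation test over the 4 libraries, two-sided, gave p = 0.333, the smallest that 2 against 2 allows. In bulk RNA, more mitochondria per cell, more RNA per mitochondrion and a different mix of cells cannot be told apart. Only RNA with a poly(A) tail is read, so a change in the tailed part cannot be told apart from these either. The increase in reads lay in the protein coding genes. Reads of the 2 rRNA genes made up 3.67% and 3.59% of counted reads in scrambled against 3.65% and 3.55% in knockdown, a difference of -0.02 points with overlapping groups (3.63% ± 0.0577 and 3.603% ± 0.0696, SD, n = 2 each). Reads of the protein coding genes made up 2.04% and 1.82% in scrambled against 3.62% and 3.12% in knockdown (1.93% ± 0.156 and 3.37% ± 0.356, SD, n = 2 each; exact permutation p = 0.333).

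The make-up of the mitochondrial reads differed accordingly. The rRNA share of mitochondrial reads was 64.0% and 66.1% in scrambled against 49.998% and 53.0% in knockdown, a difference of -14.0 points within batch 1 and of -13.1 within batch 2. For each rRNA read there were 0.555 and 0.506 protein coding reads in scrambled against 0.992 and 0.877 in knockdown. Shares sum to the whole, so they do not move independently of each other.

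**Figure D2:**
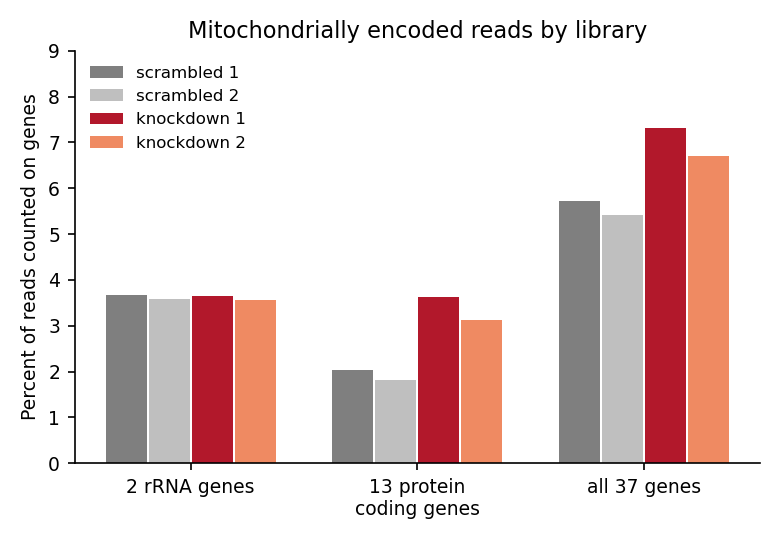
Percent of counted reads in each library (bars) that came from the 2 rRNA genes, the 13 protein coding genes and all 37 mitochondrially encoded genes. The rRNA bars are between 3.55% and 3.67% in all 4 libraries, and the protein coding bars are 1.82% and 2.04% in scrambled against 3.12% and 3.62% in knockdown.

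Across the 10 tested members, 4 were called higher in knockdown (*mt-Cytb*, *mt-Nd4*, *mt-Nd2* and *mt-Nd1*) and 1 was called lower (*mt-Nd6*), where a call needs an edgeR adjusted p under 0.05, a log2 fold change beyond 0.5 in either direction and normalized counts that average over 10. Of all 8670 genes tested, 2.33% were called higher and 3.22% lower. At the adjusted p alone, 5 members were higher, with *mt-Nd5* added, and 1 was lower, where 2.51% and 3.44% of all genes were. Both knockdown libraries were above both scrambled libraries for 7 members (26.4% of all genes) and below them for 1 member (26% of all genes), and the groups overlapped only for the 2 rRNA genes. The members share a precursor RNA and a compartment, so these counts are not counts of independent genes. The number of calls depended on the libraries, since without scrambled 2 only *mt-Cytb* was called (1.44% of all genes higher and 2.55% lower) and without knockdown 1 only *mt-Cytb*, *mt-Nd4* and *mt-Nd1* were (0.905% and 1.24%). With DESeq2 (Wald test, local dispersion fit), 2 members were called, *mt-Cytb* and *mt-Nd1* (0.94% of all genes higher and 1.74% lower). A parametric fit in DESeq2 (Wald test) called 4 members higher, *mt-Cytb*, *mt-Nd4*, *mt-Nd2* and *mt-Nd1*, and none lower. Of 16728 genes with reads, that fit called 44 higher and 71 lower.

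**Figure D3:**
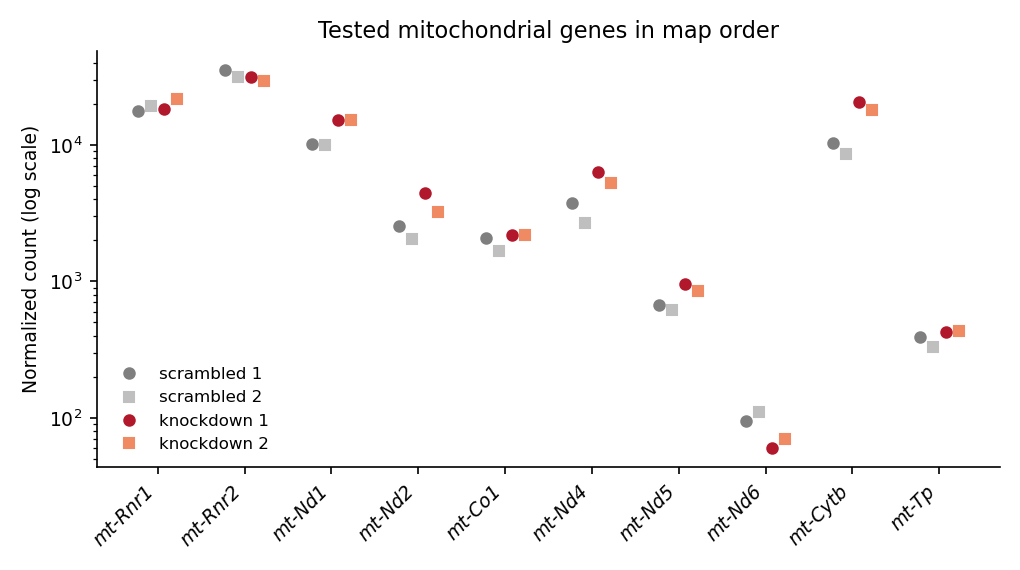
Normalized counts (log scale) of the 10 tested members in map order, with 1 point per library. For *mt-Cytb* the knockdown libraries are at 20530 and 17924 and the scrambled libraries at 10266 and 8567, while for the rRNA genes the points of both groups mix.

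*mt-Cytb* encodes cytochrome b, the core subunit of complex III that passes electrons from ubiquinol, and was the member that rose most. It had 9797 and 10175 reads in scrambled against 20590 and 15324 in knockdown. Scaled for library size, the normalized counts were 10266 and 8567 in scrambled against 20530 and 17924 in knockdown, so that every knockdown library was well above both scrambled libraries. Means were 9416 ± 1201 and 19227 ± 1843 (SD, n = 2 each), a log2 fold change of 1.03 (SE 0.16, edgeR adjusted p = 0.000708), with log2 ratios of 1.00 in batch 1 and 1.07 in batch 2. It stayed below an adjusted p of 0.05 in all 18 alternatives, edgeR and DESeq2 ones alike, where the change ranged from 0.73 to 1.16.

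Among the complex I genes, *mt-Nd4*, *mt-Nd2* and *mt-Nd1* rose. These encode subunits of the membrane arm, which moves protons across the inner membrane. *mt-Nd4* had 3597 and 3155 reads in scrambled against 6305 and 4520 in knockdown. Its normalized counts were 3213 ± 787 and 5787 ± 707 (SD, n = 2 each) and differed by 0.85 on the log2 scale (SE 0.17, edgeR adjusted p = 0.00458), and its lowest knockdown value (5287) was above its highest scrambled value (3769).

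*mt-Nd2* had 2419 and 2439 reads in scrambled against 4441 and 2765 in knockdown, and the rise was larger in batch 1 than in batch 2 (log2 ratios of 0.80 and 0.66). Its normalized counts were 2294 ± 340 and 3831 ± 844 (SD, n = 2 each) and differed by 0.74 on the log2 scale (SE 0.16, edgeR adjusted p = 0.00990). With single libraries left out the change ranged from 0.50 (without knockdown 1) to 0.95 (without knockdown 2). DESeq2 with a local fit gave 0.73 and no call (Wald test, adjusted p = 0.146).

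*mt-Nd1* had 9738 and 11826 reads in scrambled against 15216 and 13080 in knockdown, and after scaling the libraries of a group were nearly level, at 10204 and 9957 in scrambled against 15171 and 15299 in knockdown. Its log2 fold change was 0.60 (SE 0.15, edgeR adjusted p = 0.0229). With the batch number as a replicate block the edgeR adjusted p was 0.0626 and the gene was not called. It was also not called without scrambled 1 (0.61, edgeR adjusted p = 0.0912) or without scrambled 2 (0.57, 0.135).

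*mt-Nd5*, another membrane arm subunit and the longest of the protein coding members at 1824 bases, had 636 and 730 reads in scrambled against 959 and 722 in knockdown. Its normalized counts were 641 ± 36.6 and 900.3 ± 79.0 (SD, n = 2 each). The log2 fold change of 0.49 (SE 0.14, edgeR adjusted p = 0.0391) was just under the fold threshold, and with the replicate block the edgeR adjusted p was 0.0749. It was called in edgeR with upper quartile factors (0.52, adjusted p = 0.0294) and without knockdown 2 (0.58, 0.0295).

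*mt-Nd6*, the complex I subunit on the minus strand, went the other way in counted reads. It had 90 and 132 reads in scrambled against 60 and 60 in knockdown, the lowest counts of any tested member. Only RNA with a poly(A) tail is read by the method, and how much of the *mt-Nd6* RNA carries one was not analysed here. Its normalized counts were 103 ± 11.9 and 65.0 ± 7.32 (SD, n = 2 each), without overlap between the groups, and it fell by 0.67 on the log2 scale (SE 0.19, edgeR adjusted p = 0.0440), by 0.66 in both batches. The call rests on edgeR with most settings, since the adjusted p was 0.265 to 0.694 in the DESeq2 configurations, 0.0560 with upper quartile factors in edgeR, and 0.241, 0.253 and 0.0620 in edgeR without knockdown 1, scrambled 2 and knockdown 2.

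The neighbours of *mt-Nd6* on the map, *mt-Nd5* and *mt-Cytb*, lie on the plus strand, and *mt-Nd5* shares 14 bases with it on the opposite strand. For each *mt-Nd6* read there were 7.07 and 5.53 reads of *mt-Nd5* in scrambled against 16.0 and 12.03 in knockdown. Likewise there were 109 and 77.1 reads of *mt-Cytb* per *mt-Nd6* read in scrambled against 343 and 255 in knockdown, with no overlap between the groups (exact permutation p = 0.333 for both ratios). The base composition of *mt-Nd6* also stands apart, with 28.1% G, where the other tested protein coding members have 7.996% to 16.1% G in the direction of the gene. Whether reads were counted by strand is not stated in the sources used here. In these files, 28 of 90 protein coding genes (31.1%) that were at least 80% covered by exons of other genes on the opposite strand had 10 or more reads, against 1 of 174 (0.575%) that were so covered on the same strand.

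*mt-Co1*, the catalytic subunit of complex IV, was the only complex IV member tested. It had 1976 and 1990 reads in scrambled against 2201 and 1862 in knockdown. Its normalized counts, 1873 ± 279 and 2186 ± 11.8 (SD, n = 2 each), did not overlap, but the log2 fold change of 0.22 (95% interval -0.08 to 0.52, edgeR adjusted p = 0.383) did not pass the test. The change of *mt-Co1* was 0.07 without scrambled 2 and 0.38 without scrambled 1. Scaled to the mitochondrial total, where the median of all genes was at -0.30, its change was -0.07.

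The 2 rRNA genes also did not pass the test. *mt-Rnr1*, the RNA of the small mitochondrial ribosomal subunit, had 16901 and 23057 reads in scrambled against 18508 and 18517 in knockdown. It differed by 0.11 on the log2 scale (95% interval -0.22 to 0.44, edgeR adjusted p = 0.733), and it turned to -0.01 without knockdown 2. *mt-Rnr2*, the RNA of the large subunit, had 33985 and 37074 reads against 31694 and 25171, with a log2 fold change of -0.13 (95% interval -0.47 to 0.21, edgeR adjusted p = 0.695). Changes of up to about these bounds cannot be told from none with 2 libraries a group. The ratio of *mt-Rnr2* to *mt-Rnr1* reads was 2.01 and 1.61 in scrambled against 1.71 and 1.36 in knockdown, with overlapping groups. Within batches it was lower in knockdown in both, by -0.30 in batch 1 and -0.25 in batch 2. Their intervals lay below the lower bound of *mt-Cytb* (0.69), whereas the difference between genes was not itself tested beyond the read ratio per library given above.

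*mt-Tp*, the tRNA for proline on the minus strand, was the only tRNA gene with reads. It is the last gene before the control region, from which both strands are transcribed, (chrM:15356-15422).
mt-Tp: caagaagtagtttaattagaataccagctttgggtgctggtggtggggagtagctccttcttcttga

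It had 375 and 391 reads in scrambled against 426 and 370 in knockdown. The knockdown libraries were higher after scaling, at a log2 fold change of 0.25 that did not pass the test (95% interval -0.05 to 0.55, edgeR adjusted p = 0.325). Without scrambled 2 the change was 0.12 and without scrambled 1 it was 0.38. The files do not give read positions, so whether these reads end in the tRNA or run on into the control region was not analysed here.

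**Figure D4:**
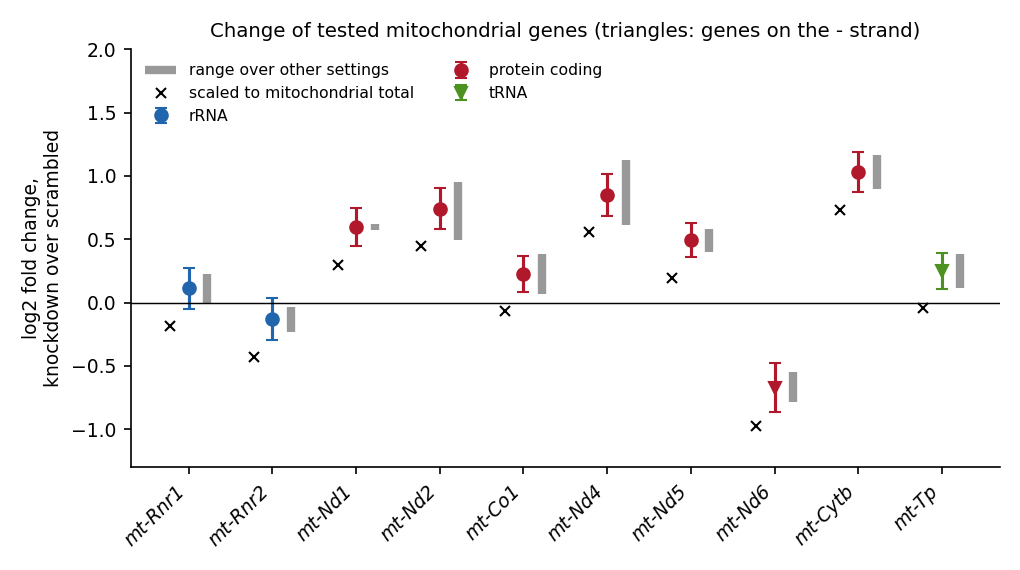
Log2 fold change, knockdown over scrambled, of the 10 tested members in map order (edgeR, bars are the SE), with the range over the other settings in grey and the change relative to the mitochondrial total as crosses. *mt-Cytb* is highest at 1.03, *mt-Nd6* is lowest at -0.67, and the crosses sit lower for each member.

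Scaling to the mitochondrial total moves the median of all genes to -0.30. That total includes the protein coding reads that rose, so part of their rise is taken out with it. Relative to this total, *mt-Cytb* (0.73, edgeR adjusted p = 0.0104) and *mt-Nd4* (0.56, 0.0377) were called higher and *mt-Nd6* (-0.97, 0.00761) lower. On the same scale 0.784% of all genes were called higher and 14.5% lower. Here *mt-Nd2* (0.44), *mt-Nd1* (0.30) and *mt-Nd5* (0.19) did not pass the test. *mt-Rnr2* was at -0.43 (edgeR adjusted p = 0.109) and *mt-Rnr1*, *mt-Co1* and *mt-Tp* took the opposite sign from that on the scale of all genes (-0.19, -0.07 and -0.05).

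By complex, complex III, which is *mt-Cytb* alone, held 12.3% and 11.2% of mitochondrial reads in scrambled against 20.5% and 18.6% in knockdown. Complex I held 20.7% and 20.1% in scrambled against 26.9% and 25.7% in knockdown. Complex IV, nearly all of it *mt-Co1*, held 2.49% and 2.19% against 2.20% and 2.26%, with overlapping groups. Complex V can hardly be seen in these counts, with at most 2 reads per library.

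Within the protein coding reads alone, the order of gain was different. *mt-Cytb* took 34.7% and 33.4% of them in scrambled against 41.4% and 40.0% in knockdown. Complex I took 58.3% and 60.04% in scrambled but 54.2% and 55.2% in knockdown, since *mt-Nd1* went from 34.5% and 38.8% to 30.6% and 34.1%. Complex IV took 6.997% and 6.54% against 4.44% and 4.86%. None of these groups overlapped (exact permutation p = 0.333 for each). The shares of *mt-Nd2* and *mt-Nd4* overlapped between the groups. The 6 genes inside the chromosome 1 copy add almost nothing to any of these totals, so that the shares of complexes I, IV and V in effect leave those genes out.

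**Figure D5:**
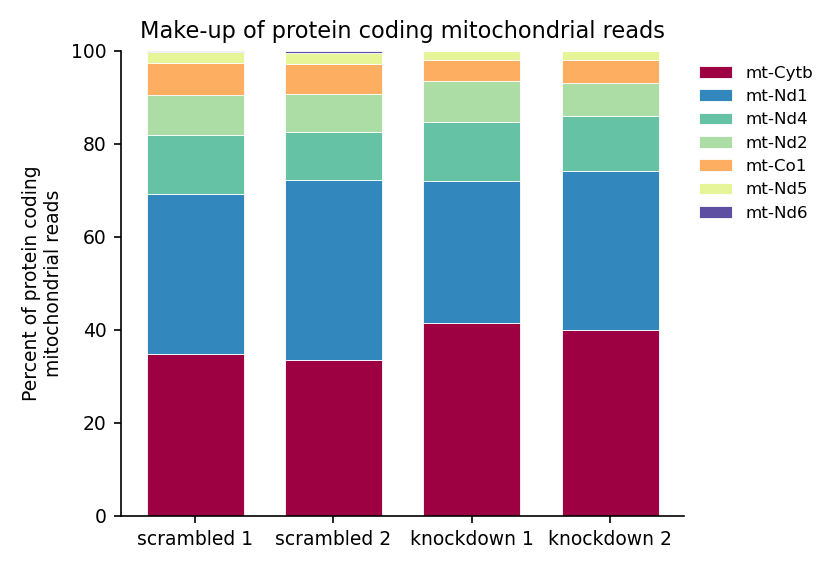
Percent of protein coding mitochondrial reads by gene in each library, stacked to 100. The *mt-Cytb* part is 33.4% and 34.7% in scrambled against 40.0% and 41.4% in knockdown, and the *mt-Co1* part is 6.54% and 6.99% against 4.42% and 4.86%.

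Levels are given per length, as reads per kilobase of gene per 1000000 counted reads (RPKM). A nanopore read is counted once whatever its length, which favours short genes on this scale. The order by read count differs from it, as given below. Per length in scrambled, *mt-Rnr2* (14729 ± 1066 RPKM) and *mt-Rnr1* (13576 ± 1162, SD, n = 2 each) were highest and overlapped each other. By normalized counts *mt-Rnr2* (35611 and 31214) was above *mt-Rnr1* (17709 and 19413) without overlap. They were followed by *mt-Nd1* at 7351, *mt-Cytb* at 5738 and *mt-Tp* at 3757 RPKM. By reads (375 and 391), *mt-Tp*, which has 67 bases, was below every other tested member but *mt-Nd6*. Per length, *mt-Nd4* (1623) and *mt-Nd2* (1540) overlapped, and *mt-Co1* (845), *mt-Nd5* (245) and *mt-Nd6* (138) were lowest. Of *mt-Co1* and *mt-Nd4*, 31.3% and 63.6% of the length lies in the chromosome 1 copy, and whether this lowered their levels was not tested.

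In knockdown the top of this order per length closed up, with *mt-Rnr1* at 14935 ± 1183 RPKM (SD, n = 2). *mt-Cytb* reached 11994 ± 1554 RPKM (SD, n = 2) and overlapped *mt-Rnr2* (13758 ± 1154) on the one side and *mt-Nd1* (11342 ± 318) on the other. By normalized counts these genes did not overlap, with *mt-Rnr2* at 31601 and 29441, *mt-Cytb* at 20530 and 17924 and *mt-Nd1* at 15171 and 15299. Below them per length came *mt-Tp* (4559 RPKM), *mt-Nd4* (2998) and *mt-Nd2* (2640), the last 2 of which again overlapped, and then *mt-Co1* (1008), *mt-Nd5* (352) and *mt-Nd6* (89.1). On the level per length *mt-Nd6* was thus the lowest tested member in both groups.

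The sequences at the ends of the 7 tested protein coding genes are shown because poly(A) addition completes the stop codon of some mitochondrial mRNAs. The last 24 bases of *mt-Cytb* (chrM:15265-15288) and *mt-Nd4* (chrM:11521-11544) end in a lone T of an incomplete codon, in capitals, and those of *mt-Nd1* (chrM:3684-3707), *mt-Nd2* (chrM:4928-4951), *mt-Nd5* (chrM:13542-13565), *mt-Co1* (chrM:6849-6872) and *mt-Nd6* (chrM:13552-13575, minus strand) end in a complete one.
mt-Cytb: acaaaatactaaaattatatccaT
mt-Nd4: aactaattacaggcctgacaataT
mt-Nd1: gcgggagtaccaccatacataTAG
mt-Nd2: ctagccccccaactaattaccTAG
mt-Nd5: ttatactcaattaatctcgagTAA
mt-Co1: ccaacctatgtaaaagtaaaaTAA
mt-Nd6: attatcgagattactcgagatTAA

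The 2 genes with an incomplete codon had log2 fold changes of 1.03 (*mt-Cytb*) and 0.85 (*mt-Nd4*), and those with a complete one had 0.74 (*mt-Nd2*), 0.60 (*mt-Nd1*), 0.49 (*mt-Nd5*), 0.22 (*mt-Co1*) and -0.67 (*mt-Nd6*). A relation to the end of the gene was not tested, and neither tail length nor the position where the RNA ends was analysed here.

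The nuclear genes that act on mitochondrial RNA and DNA were taken as a list of 50, of which 37 were tested. None was called higher or lower by edgeR, where 2.33% and 3.22% of all genes were. At an unadjusted p under 0.05, 4 were higher and 3 lower, where 10.3% and 11.5% of all genes were. The median log2 fold change of the list was 0.12 (range -0.74 to 0.89), and that of all genes tested was -0.00059. The groups did not overlap for 12 genes in the upward and 10 in the downward direction, where the shares of all genes were 26.4% and 26%.

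By role, the values among transcription genes were 18 and 30 reads in scrambled against 39 and 34 in knockdown for *Polrmt*, the mitochondrial RNA polymerase (log2 fold change 0.81, edgeR adjusted p = 0.112), and 18 and 12 reads against 29 and 20 for *Mterf3*, a regulator of mitochondrial transcription (0.89, 0.168). For *Mterf3* the change was 0.47 without scrambled 2 and 1.37 without scrambled 1. *Mrpl12*, a ribosomal protein, had the highest counts of the list and a log2 fold change of -0.30 (edgeR adjusted p = 0.234). Among genes for RNA processing and decay, *Fastkd2*, which binds mitochondrial RNA, was at 0.72 (edgeR adjusted p = 0.0629), *Tbrg4* (also called Fastkd4) at -0.38 (0.218), *Dhx30*, an RNA helicase, at -0.57 (0.123), and *Rexo2*, which degrades short RNA, at -0.37 (0.112). For *Tbrg4* the change was -0.16 without scrambled 2 and -0.57 without scrambled 1. *Grsf1*, an RNA granule protein, was at 0.30 (edgeR adjusted p = 0.289) and *Hsd17b10*, a subunit of the RNase P that frees tRNA ends, at -0.05 (0.898). *Ssbp1*, which binds single-stranded mitochondrial DNA, was at 0.59 (edgeR adjusted p = 0.0559). With the replicate block *Fastkd2* and *Ssbp1* were called (0.73 and 0.59, edgeR adjusted p = 0.0436 and 0.0462). Both were also called without knockdown 1 (0.99 and 0.80), but without knockdown 2 they were at 0.42 and 0.36 (edgeR adjusted p = 0.395 and 0.356).

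Nuclear genes for abundant mitochondrial proteins were set beside these as a list of 22, all tested. The list was split, with 11 above and 11 below 0, a median log2 fold change of -0.01, and 6 genes above and 8 below without overlap between the groups (26.4% and 26% of all genes). Of these genes 1 was called, *Vdac2*, a channel of the outer membrane (log2 fold change -0.60, edgeR adjusted p = 0.0112), where 3.22% of all genes were called lower. It was not called without scrambled 2 or without knockdown 1, and 2 genes were called without knockdown 2. At an unadjusted p under 0.05 (10.3% of all genes higher and 11.5% lower), 2 were higher, *Cs*, the citrate synthase (0.35, edgeR adjusted p = 0.149), and *Immt*, which shapes the cristae (0.47, 0.0743). On the other side, 4 were lower: *Vdac2*, the chaperone gene *Hspa9* (-0.39, edgeR adjusted p = 0.0929), the protease gene *Clpp* (-0.43, 0.118) and the ADP/ATP carrier gene *Slc25a4* (-0.39, 0.0979). *Clpp* was at -0.24 without knockdown 1 and at -0.65 without knockdown 2. Of the genes with a p above that, those with the most reads were *Slc25a5*, another ADP/ATP carrier gene, at -0.12, *Hspe1* at -0.06 and *Hspd1* at 0.08, the last 2 being the chaperonin genes of the matrix.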

How the data were processed

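Total RNA of 2 scrambled and 2 *Hnrnpl* knockdown cultures was sequenced by the authors as direct RNA (SQK-RNA002 kit, R9.4.1 flow cells). Per the submitters' processing notes and methods, reads were mapped to GRCm39 with minimap2 2.17 and counted per gene with HTSeq 0.9.1. The annotation release, the strand setting and the counting mode are not given in the sources used here. The deposited files hold whole read counts, not normalized, for 56748 gene IDs, and these were used as deposited. Summary lines for ambiguous, low-quality and unassigned reads stayed out of library sizes. Symbols and positions came from GENCODE vM39, in which 56017 IDs were found.

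Counts were compared in edgeR 4.0.16 (R 4.3.3) with TMM factors, filterByExpr and the quasi-likelihood test over all 8670 genes kept, two-sided, with Benjamini-Hochberg adjustment. The script was tested on simulated data. Counts divided by their effective (TMM) library size and multiplied by the average one are called normalized counts. CPM and RPKM were computed from the counts. Shares were compared by exact permutation. Member sequences were searched in the nuclear genome with blastn 2.17.0.

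The replicate number was taken as a batch, so it pairs the libraries. The correlation of the deviations of same-numbered libraries from the mean of their group was -0.0121 (5103 genes that reached 30 counts in each library). Alternatives were the replicate block, RLE and upper quartile factors, scaling without or to the mitochondrial genes, other filters, the robust and the legacy = FALSE quasi-likelihood tests, 4 DESeq2 1.42.0 configurations, added pseudogene reads and each library left out. All mt- genes and *Hnrnpl* were named, with genes of both nuclear lists at an unadjusted p under 0.05, up to 3 further ones of highest count per list, and pseudogenes with at least 10 reads in any library. The members and lists were chosen with earlier results of these data known.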

Additional observations from a re-analysis of the deposited data

How the results depend on the processing

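The number of mitochondrially encoded genes called (5) was 2 with DESeq2 and a local fit (Wald and likelihood ratio test), 3 when scaled to the mitochondrial total (where 0.784% of all genes were called higher and 14.5% lower), and 1 to 5 with single libraries left out. With the replicate block, which follows the pairing by batch, 4 were called and *mt-Nd1* was lost. The block called 204 higher and 280 lower of all 8670 genes. DESeq2 with a parametric fit also called 4, where *mt-Nd6* was lost. With the Wald test, that fit called 44 higher and 71 lower of 16728 genes with reads. The list of mitochondrial gene expression (0 called) gave 2 with no filter and 2 with the replicate block. It gave 1 with the robust test and 1 where every library had to reach 10 counts. The list of mitochondrial markers (1 called) stayed at 1 in these settings. Of all genes, 252 were called higher and 360 lower of 16728 with no filter. The robust test called 232 higher and 312 lower of 8670, and the filter on 10 counts 201 and 282 of 7705. Calls in both lists also changed with single libraries left out. With upper quartile factors 5 mitochondrially encoded genes were called, with *mt-Nd5* in and *mt-Nd6* out. The block changed no other call of a named mitochondrially encoded gene. *Hnrnpl* (-0.78) missed the threshold with DESeq2 and a parametric fit at the same change of -0.78 (adjusted p = 0.0567 and 0.0670) and ranged from -1.03 to -0.48 with single libraries left out. Scaling to the mitochondrial total, which lowers all genes alike (median -0.30), turned *mt-Rnr1* to -0.19, *mt-Co1* to -0.070 and *mt-Tp* to -0.046. With single libraries left out, *mt-Rnr1* ranged from -0.0099 (without knockdown 2) to 0.22, *Hsd17b10* from -0.13 to 0.024 (without knockdown 2) and *Hspe1* from -0.35 to 0.17 (without knockdown 1; 0.055 without scrambled 1). The difference in share of counted reads was -0.024 points over the rRNA genes alone, the complex I difference was -4.50 points as a share of protein coding reads, and the complex IV difference of -0.11 points ranged from -0.26 to 0.040 (without scrambled 1). The cause of each was not tested.

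Of 18 alternatives, the adjusted p stayed under 0.05 in all for *mt-Cytb*, in 15 for *mt-Nd4*, 14 for *mt-Nd1*, 13 for *mt-Nd2*, 11 for *mt-Nd5* and 10 for *mt-Nd6*, and none of these changed direction. *mt-Nd6* had the fewest reads of the tested members (60 to 132 per library). The 27 untested members, 21 tRNA genes with no reads and the 6 genes inside the chromosome 1 copy, had too few reads for a test, the cause of which was not tested, and with 2 libraries a group no share can pass a permutation test.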
